A study of Rattus norvegicus with 28 samples.

Results

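Sensory neurons of the dorsal root ganglion (DRG) carry G protein-coupled receptors through which mediators from injured or inflamed tissue alter firing. The 7 receptor genes described here were taken by name, and comprise 4 receptors for excitatory mediators, Chrm3, Htr2a, Htr2b and Ptger4, the itch receptor gene Mrgprx1, and the orphan receptor genes Mrgpre and Gpr158. They are 7 of 32754 Ensembl genes in the count table, of which 21122 had at least 1 count in either library. Each of the 7 had at least 10 counts in both libraries, as did 15115 of these 21122 genes. All 7 stand in the study's own list of genes selected in both of its pain models, and these libraries were part of that selection, so the choice of genes is not independent of these data.

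The study compared DRGs of rats with nerve injury, rats with hind paw inflammation and naïve rats by RNA-seq, which counts polyadenylated transcripts, and by ATAC-seq, which measures open chromatin. The RNA libraries analysed here are the 2 of the inflammation group, called CFA replicate 1 and CFA replicate 2. Both come from adult male Sprague-Dawley rats aged 12 weeks, which received complete Freund's adjuvant (CFA), a mycobacterial emulsion that inflames the paw, into the plantar surface of the hind paw. Their ipsilateral lumbar ganglia were taken 48 h later and pooled within 1 rat per library. Only rats that had developed mechanical hypersensitivity of the paw were kept. RNA libraries of naïve rats and of rats with nerve injury were not analysed here, so each value below is a level after CFA and none is a change caused by it. Each rat gave 1 library, so a difference between the 2 libraries holds rat, dissection and library preparation together. Where a difference or change between the rats is given below, it is this combined difference within 1 group.

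Receptors that couple to Gq, among them the muscarinic receptor M3 and the serotonin receptors 5-HT2A and 5-HT2B, activate phospholipase C, which releases calcium from stores and activates protein kinase C. Receptors that couple to Gs, such as the prostaglandin receptor EP4, raise cyclic AMP and activate protein kinase A. In sensory neurons both routes act on channels that set the threshold for firing. Orphan receptors are receptors for which no ligand had been established when they were named.

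Replicate 1 held 10520647 counts assigned to genes and replicate 2 held 28825688, a depth ratio of 2.74. Levels are given as CPM, the count of a gene per 1000000 counts of its library. A count of 0 would allow up to 3 counts, or 0.285 CPM in replicate 1 and 0.104 CPM in replicate 2, and all 7 receptors lay above this in both libraries. Intervals are exact 95% Poisson intervals and cover counting error only, since reads amplified by PCR are not independent molecules. CPM rises with the length of a transcript, and no transcript length on the annotation of the files was used here, so no order of transcript abundance between genes was made. Where a gene is called highest or lowest, this refers to its CPM, not corrected for length. All 12 markers of sensory neurons that could be matched had at least 10 counts in both libraries. The highest CPM among them was that of Nefm, a neurofilament gene, at 11580 ± 8.37 CPM (SD, n = 2). Markers were matched through the study's list of selected genes, and these libraries took part in that selection. Detection of markers was therefore favoured by the choice and does not test the identity of the tissue. Of the 7 markers of Schwann and satellite glia, each was also detected, with sums of 4342 and 4193 CPM in replicates 1 and 2. In such bulk tissue, fewer cells of a type and less RNA per cell cannot be told apart.

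The upstream sequences of Gpr158 and Htr2b are shown because these receptors had the most and the fewest reads of the 7. They are from RefSeq on the GRCr8 build and end at the base before the start that the promoter table uses, with CpG dinucleotides in capitals. Gpr158 is at chr17:88742573-88742822 on the plus strand and Htr2b at chr9:94204088-94204337 on the minus strand.
Gpr158: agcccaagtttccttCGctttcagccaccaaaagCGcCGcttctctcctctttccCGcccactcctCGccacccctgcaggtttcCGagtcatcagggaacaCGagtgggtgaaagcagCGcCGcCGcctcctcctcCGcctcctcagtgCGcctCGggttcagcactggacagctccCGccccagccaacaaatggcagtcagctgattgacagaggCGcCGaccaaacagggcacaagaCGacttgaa
Htr2b: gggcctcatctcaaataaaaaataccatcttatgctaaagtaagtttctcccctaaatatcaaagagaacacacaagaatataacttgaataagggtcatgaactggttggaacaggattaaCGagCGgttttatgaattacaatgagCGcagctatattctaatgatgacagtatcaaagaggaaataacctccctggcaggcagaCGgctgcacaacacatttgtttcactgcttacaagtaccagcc

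The Gpr158 stretch holds 17 CpG and 61.6% G or C, and the Htr2b stretch 4 CpG and 39.6%. The start used lies inside the annotated span of the gene for all receptors with an entry except Mrgprx1. Exon positions were not used here, so whether another transcript covers the printed stretches was not tested. Over the whole window of 300 bases, from 250 before the start to 50 after it, 6 of the 7 receptors had an entry and Htr2a had none. Chrm3 had 28 CpG and Gpr158 had 19, while Ptger4 had 13, Mrgpre 7, Htr2b 6 and Mrgprx1 4, compared with a median of 7 over 33469 RefSeq promoters. The letters GGGCGG, searched on both strands, occurred in the windows of Chrm3 and Gpr158 and in 33.1% of all promoters. TATAAA occurred in the window of Mrgprx1 and in 14.2% of all promoters. TGACGTCA, the palindromic cyclic AMP response element, was in 0 of the 6 windows and in 1.83% of all promoters. For Mrgprx1 and Ptger4 the letters ATG stand at the start itself, so this may be the start of the coding sequence. Their windows may then lie within the transcript and not at its promoter, which was not tested. Accessibility at these starts was not analysed here, because the accessible regions are given on the rn6 build and no rn6 gene positions were used.

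Reads of all 7 receptors were found in both rats. Together they took 2058 reads in replicate 1 and 6234 in replicate 2, which is 196 and 216 CPM. Gpr158 held 70.9% of these reads in replicate 1 and 71.1% in replicate 2. Without Gpr158 the other 6 receptors summed to 56.9 and 62.5 CPM.

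**Figure D1:**
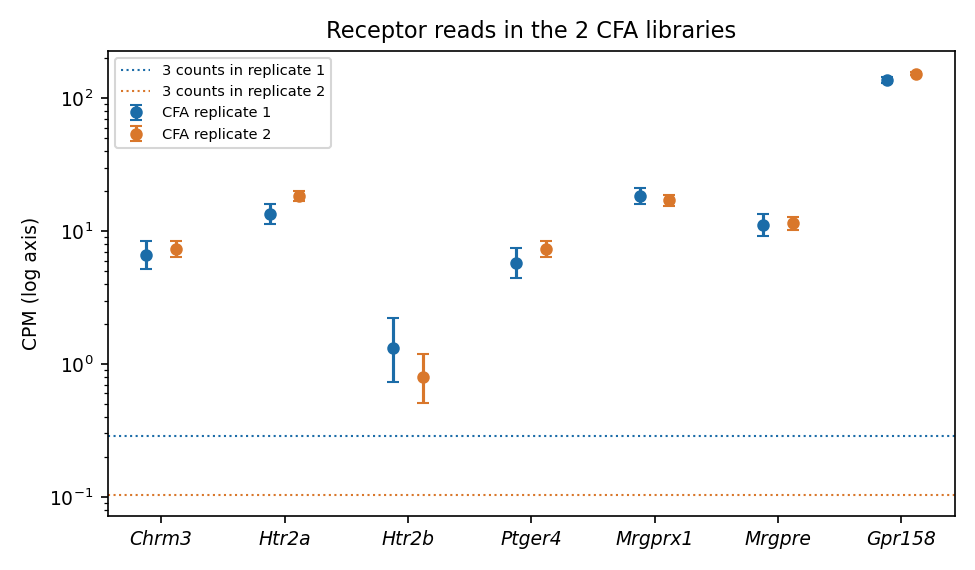
CPM (log axis) of the 7 receptors in CFA replicate 1 (blue) and CFA replicate 2 (orange), with exact 95% Poisson intervals. Dotted lines mark the level of 3 counts in each library, and all points lie above them, with Htr2b nearest at 1.33 and 0.798 CPM.

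Chrm3 (ENSRNOG00000049410) encodes the muscarinic acetylcholine receptor M3, which couples to Gq. It had 70 counts in replicate 1 and 211 in replicate 2, or 6.65 CPM (interval 5.19 to 8.41) and 7.32 CPM (6.37 to 8.38). The intervals overlap almost completely, and the mean was 6.99 ± 0.471 CPM (SD, n = 2). On the log2 scale replicate 1 minus replicate 2 was -0.14, with a counting interval from -0.55 to 0.26. The M2 receptor gene Chrm2, which couples to Gi and is inhibitory, had 13.8 and 14.5 CPM. For every read of Chrm2 there were 0.483 reads of Chrm3 in replicate 1 and 0.506 in replicate 2. A ratio of this kind within a library can be compared between the 2 rats without a transcript length, and this one changed by -0.07 on the log2 scale (interval -0.57 to 0.42). Ache, whose enzyme breaks down acetylcholine, had 202 and 231 CPM.

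Htr2a (ENSRNOG00000010063) encodes the serotonin receptor 5-HT2A, a Gq-coupled receptor. Its counts were 142 and 533, which give 13.5 CPM (interval 11.4 to 15.9) in replicate 1 and 18.5 CPM (17.0 to 20.1) in replicate 2. These intervals do not overlap, and the log2 difference of -0.45 had a counting interval from -0.73 to -0.18. The mean was 16.0 ± 3.53 CPM (SD, n = 2), with an SD of 22.1% of the mean. Among 4988 genes whose summed count lay within a factor of 2 of that of Htr2a, the log2 difference between the libraries had an SD of 0.23, and 3.83% of them lay further from their median than Htr2a did. The difference is between 2 rats of the same group, and with 2 libraries no test of it over samples was possible. Trpm8, the cold and menthol channel, differed in the same direction, with 66.4 and 95.5 CPM and a log2 difference of -0.52 (interval -0.65 to -0.40). The number of Htr2a reads per Trpm8 read was 0.203 and 0.194, a log2 change of 0.07 (interval -0.23 to 0.37). Trpm8 had the lowest log2 difference of 9 channel genes and was chosen after its values were seen. The small change of this ratio follows from that choice, and 2 libraries cannot show whether the genes vary together.

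Htr2b (ENSRNOG00000017625) encodes 5-HT2B, a related receptor that also couples to Gq. It had 14 counts in replicate 1 and 23 in replicate 2, so its level rests on 37 reads. They correspond to 1.33 CPM (interval 0.728 to 2.23) and 0.798 CPM (0.506 to 1.20), with a mean of 1.06 ± 0.377 CPM (SD, n = 2). The log2 difference was 0.74, with a counting interval from -0.33 to 1.76, and no difference between the rats was detectable at this depth. In the GRCr8 gene table the span of Htr2b overlaps that of Psmd1, a proteasome subunit gene. The library kit keeps the strand, but the strand setting of the read counting is not given in the sources used here, so reads of Psmd1 among the 37 cannot be told apart.

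Further genes of serotonin signalling were present in both rats. Htr1b, a Gi-coupled serotonin receptor, had 17.6 and 15.1 CPM, and Htr3b, a subunit of the serotonin-gated ion channel, had 101 and 98.2 CPM. The number of Htr2a reads per Htr1b read was 0.768 in replicate 1 and 1.23 in replicate 2, a log2 change of -0.67 (interval -1.05 to -0.30). Per Htr3b read it was 0.133 and 0.188, a change of -0.50 (interval -0.79 to -0.21). Both ratios reuse the counts of Htr2a, whose own interval excludes 0, so they are not separate evidence of a difference. The pairs were chosen after their values were seen. Tph2, an enzyme of serotonin synthesis, had 12.5 and 15.8 CPM, and Maob, a monoamine-degrading enzyme, 67.4 and 74.8 CPM.

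Ptger4 (ENSRNOG00000013240) encodes EP4, a receptor for prostaglandin E2 that couples to Gs. Its counts of 61 and 212 gave 5.80 CPM (interval 4.44 to 7.45) in replicate 1 and 7.35 CPM (6.40 to 8.41) in replicate 2. The mean was 6.58 ± 1.10 CPM (SD, n = 2), and the log2 difference of -0.34 had an interval from -0.78 to 0.07, which includes 0. Ptger1, the gene of the calcium-mobilizing receptor EP1 for the same ligand, had 4.47 and 5.27 CPM. There were 1.30 and 1.39 Ptger4 reads per Ptger1 read, a log2 change of -0.10 (interval -0.76 to 0.56). Ptgfr, the receptor gene for prostaglandin F2α, had 28.2 and 31.8 CPM, and Ptgr2, which takes part in prostaglandin breakdown, 38.4 and 42.2 CPM.

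Mrgprx1 (ENSRNOG00000014242, matched through the study's supplementary gene list) belongs to the Mas-related receptors. Some of these are expressed in small sensory neurons and mediate itch that does not depend on histamine. The study names Mrgprx1, together with Htr2a, Htr2b and Ptger4, among genes known from clinical pain such as neuralgia. Mrgprx1 had 194 and 491 counts, or 18.4 CPM (interval 15.9 to 21.2) and 17.0 CPM (15.6 to 18.6). The mean was 17.7 ± 0.995 CPM (SD, n = 2). Among the 7 receptors only Mrgprx1 and Htr2b had the higher CPM in replicate 1, and for both the interval of the difference includes 0, from -0.13 to 0.36 around 0.11 for Mrgprx1. Il31ra, a subunit of the receptor for the itch cytokine interleukin 31, had 30.2 CPM in replicate 1 and 34.8 CPM in replicate 2. The number of Mrgprx1 reads per Il31ra read was 0.610 and 0.490, a log2 change of 0.32 (interval 0.01 to 0.63). This pair is among 9 of a receptor with a listed gene, chosen after their values were seen. Of the 9 intervals 4 exclude 0, and none was adjusted for the number of pairs. The channel gene Trpa1, which responds to irritants, had 102 and 112 CPM, and Mrgprx1 reads per Trpa1 read were 0.181 and 0.152 (log2 change 0.25, interval -0.01 to 0.52).

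Mrgpre (ENSRNOG00000054917) encodes an orphan member of the same family. With 118 and 331 counts it had 11.2 CPM (interval 9.28 to 13.4) and 11.5 CPM (10.3 to 12.8). Its mean of 11.3 ± 0.189 CPM (SD, n = 2) had an SD of 1.66% of the mean, the smallest among the 7 receptors, and its log2 difference was -0.03 (interval -0.35 to 0.27). The interval of the counts is much wider than this SD, so the 2 values may lie this close through counting alone. The GRCr8 gene table lists 18 genes named Mrgpr, 15 of them protein coding and 3 pseudogenes. Mrgprb4 is the gene next to Mrgprx1 and Mrgprg the gene next to Mrgpre. Reads from similar copies can be split or lost in counting, so the levels of both receptors are uncertain to an extent that was not tested.

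Gpr158 (ENSRNOG00000024832) encodes an orphan receptor of class C that binds RGS7, a protein that speeds the switching-off of G proteins. Its name in the RefSeq gene table also includes mGlyR, for metabotropic glycine receptor. It had 1459 counts in replicate 1 and 4433 in replicate 2, or 139 CPM (interval 132 to 146) and 154 CPM (149 to 158). These intervals do not overlap. The mean was 146 ± 10.7 CPM (SD, n = 2) and the log2 difference -0.15 (interval -0.24 to -0.06). Among 2482 genes of like count the SD of the difference was 0.15, and 25.9% lay further from their median than Gpr158. The partner gene Rgs7 had 62.9 and 60.9 CPM, so Gpr158 reads per Rgs7 read were 2.20 in replicate 1 and 2.52 in replicate 2, a log2 change of -0.20 (interval -0.35 to -0.04). In the GRCr8 table, 4 of the 7 receptors share part of their span with another gene: Gpr158 with 4 entries of which 1, Rps8l1, is protein coding, Htr2b with Psmd1, and Chrm3 and Ptger4 with 1 long noncoding RNA each.

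**Figure D2:**
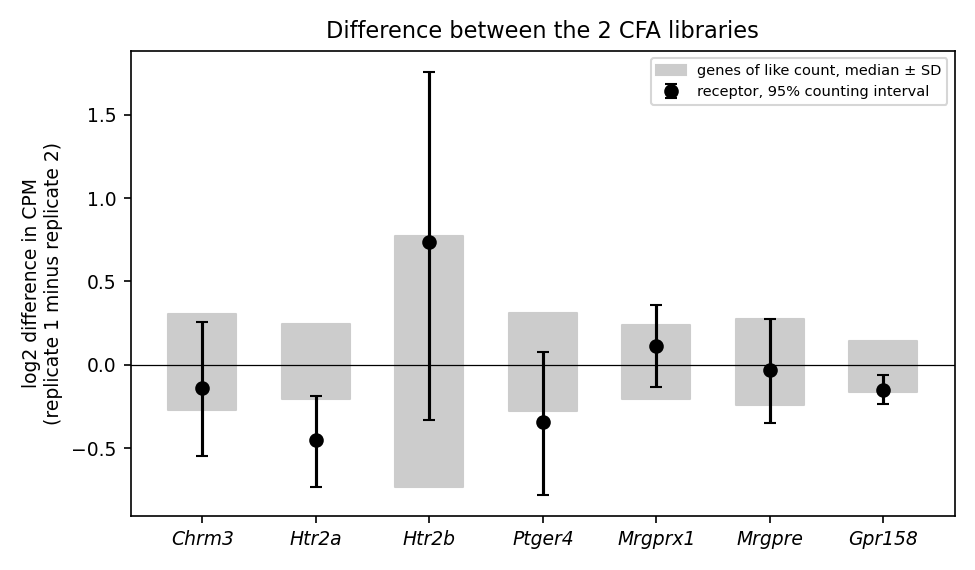
Log2 difference in CPM between CFA replicate 1 and CFA replicate 2 (positive where replicate 1 is higher) with 95% counting intervals, and in grey the median ± SD of genes whose summed count lies within a factor of 2. The intervals of Htr2a (-0.73 to -0.18) and Gpr158 (-0.24 to -0.06) exclude 0, and the points of Htr2a and Ptger4 lie outside their grey bars.

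The counting interval of the difference between the 2 rats excluded 0 for 2 of the 7 receptors, Htr2a and Gpr158, both with more CPM in replicate 2. Over all 15115 genes that reached 10 counts in each library it excluded 0 for 25.6%, so the share among the receptors is near that of all genes. These intervals are narrow for genes with many reads, and among genes of like count 44.4% excluded 0 for Gpr158 and 20.5% for Htr2a. Of the 7 receptors, 5 had the higher CPM in replicate 2, as did 7178 of the 15115 genes. The median log2 difference of the 7 receptors was -0.14, compared with 0.01 over the 15115 genes. The width of the interval fell from 2.09 log2 units at Htr2b to 0.17 at Gpr158, so the libraries would show a small difference in Gpr158 but not in Htr2b.

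**Figure D3:**
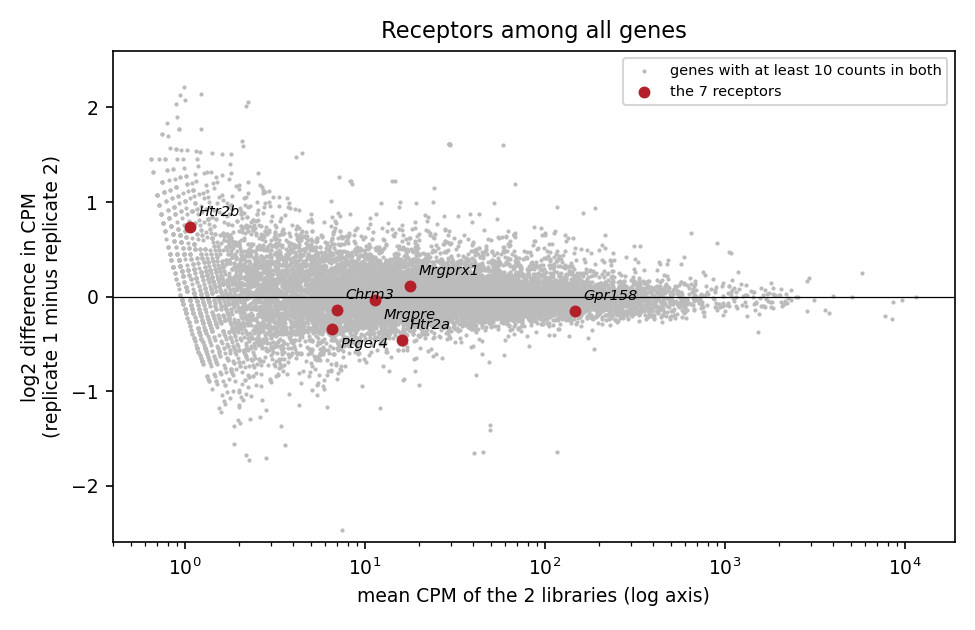
Log2 difference in CPM between the 2 CFA libraries (replicate 1 minus replicate 2) against mean CPM (log axis) for the 15115 genes that reached 10 counts in each library (grey) and the 7 receptors (red). The spread narrows with mean CPM, and Htr2a at -0.45 lies towards the lower edge of genes at its level.

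The 21 pairs among the 7 receptors were compared by how far the ratio of their reads changed between the rats, with exact conditional 95% intervals that were not adjusted for the number of pairs. All pairs with Htr2a reuse its 142 and 533 counts, and the share of such intervals that exclude 0 among pairs of other genes was not computed. Htr2a reads per Htr2b read were 10.1 in replicate 1 and 23.2 in replicate 2, a log2 change of -1.19 (interval -2.25 to -0.08). The numbers per Mrgprx1 read were 0.732 and 1.09, a change of -0.57 (interval -0.94 to -0.20). The ratio of Chrm3 to Gpr158 changed by 0.01, with an interval from -0.41 to 0.42.

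**Figure D4:**
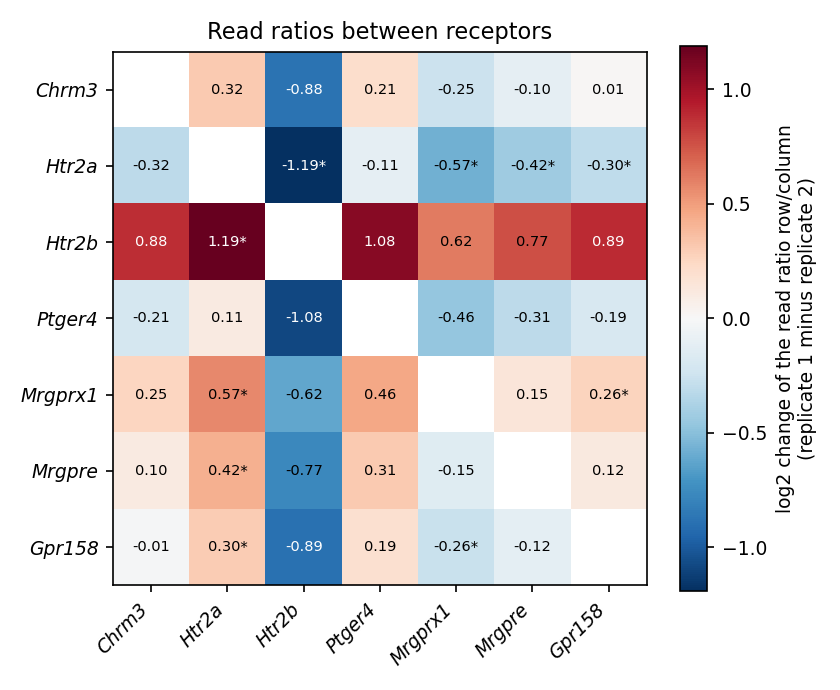
Change of the read ratio of the row receptor to the column receptor between CFA replicate 1 and CFA replicate 2, in log2 units (red where the ratio is higher in replicate 1). Stars mark pairs whose 95% counting interval excludes 0, such as Htr2a with Mrgprx1 at -0.57, and all cells of a row share the counts of its receptor.

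Genes that act with these receptors were described from lists that hold only genes of the study's own selection, so they are not samples of their pathways. These libraries took part in that selection, so detection of the listed genes was favoured by it and is no result about them. The 19 genes of G protein and second messenger signalling had a median level of 23.8 CPM. Of these, 18 had at least 10 counts in both libraries, compared with 15115 of the 21122 genes detected in either. The exception was Gnb3, a G protein beta subunit gene, with 4 and 3 counts, and Dgkz, a kinase that removes the messenger diacylglycerol, had the highest CPM of the list, 234 and 214. In this list 10 genes had the higher CPM in replicate 1 and 9 in replicate 2. Kcnq3 and Kcnq5 encode potassium channel subunits of the M current, which Gq-coupled receptors suppress. Kcnq3 had 14.4 CPM in replicate 1 and 16.8 CPM in replicate 2, and Kcnq5 had 109 and 111 CPM. Of the 9 channel genes, 8 had the higher CPM in replicate 2, compared with 7178 of the 15115 genes. A lean to replicate 2 was not seen in channels alone. Among the 12 markers of sensory neurons, which share Scn10a and Scn11a with the channel list, 8 had the higher CPM in replicate 2. Among the 7 glial markers 2 did. The cause of the lean was not tested. Kcnq3 was lowest of the 9 at 15.6 ± 1.68 CPM and Scn9a, a sodium channel of pain-sensing neurons, highest at 584 ± 44.5 CPM (SD, n = 2).

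The 9 inhibitory receptors of the same selection, which couple to Gi, had levels from 8.72 CPM at Npy2r to 231 CPM at Gabbr2, and 6 of them had the higher CPM in replicate 2. Chrm2 and Htr1b, described above, are among them. The 5 other orphan receptors ranged from Gpr52 at 2.39 ± 0.924 CPM to Gpr149 at 48.2 ± 4.21 CPM. Gpr52 had 32 and 50 counts and a log2 difference of 0.81 (interval 0.12 to 1.48).

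Cell type markers were set beside the differences between the rats. The 12 markers of sensory neurons summed to 36437 CPM in replicate 1 and 37724 CPM in replicate 2, with a median log2 difference of -0.004 and a range from -0.21 to 0.17. The 7 glial markers had a median of 0.04 and ranged from -0.12 to 0.56, and the interval excluded 0 for 5 of them. Gfap, a marker of activated satellite glia, had 20.6 and 13.9 CPM (interval of the log2 difference 0.32 to 0.81). The fibroblast gene Col1a1 and the mural cell gene Pdgfrb differed by 0.07 and -0.09. The 3 muscle markers summed to 20.2 and 15.0 CPM, and most of this fall came from Myh6, at 13.0 and 7.87 CPM. The log2 difference of Myh6 had an interval from 0.41 to 1.04. Myh7b had 5.42 and 4.89 CPM, with an interval of the log2 difference from -0.32 to 0.60. Myh7 went the other way, with 1.71 and 2.22 CPM (interval -1.22 to 0.40). No marker of these lists was at 0 in either library. Immune markers were not among the genes that could be matched. The part of cell makeup in the differences of the receptors was not tested.

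**Figure D5:**
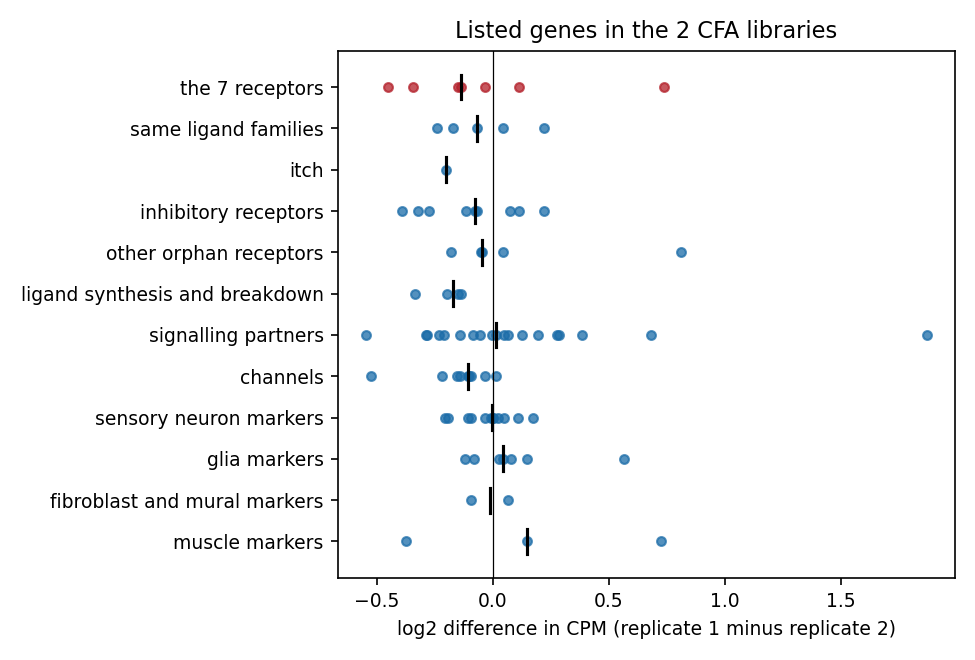
Log2 difference in CPM between the 2 CFA libraries (replicate 1 minus replicate 2) for the 7 receptors (red) and the genes of each list (blue), with the median of each as a black bar. The receptors range from -0.45 at Htr2a to 0.74 at Htr2b, and the neuronal markers from -0.21 to 0.17.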

How the data were processed

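RNA-seq counts of the 2 CFA libraries were analysed. The authors deposited a raw count per Ensembl gene, made from reads aligned to rn6 with HISAT2, freed of ribosomal RNA and counted with featureCounts. Versions and the strand setting are not given in the sources used here. Column names matched 1 sample label each, and 0 columns of per-sample values were left out. Symbols were paired with Ensembl genes through the study's supplementary list of 1949 genes, from which no value was used. Counts were divided by the library total (CPM). Differences between libraries were given with exact conditional 95% intervals, without p-values, since no control library was analysed. Library totals were 10520647 and 28825688. The interval code was tested on counts simulated from a Poisson model without variation between rats. This checks the code, not whether the intervals cover differences between rats. Python 3.11.15, numpy 2.4.6, pandas 2.3.3, scipy 1.17.1, matplotlib 3.10.9, R 4.3.3 and edgeR 4.0.16 (for TMM scaling) were used.

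The rule for named genes takes all 7 receptors, every gene of the lists of shared ligands, itch and ligand turnover, Rgs7, the Kcnq genes, the extremes of the other lists, and genes under 10 counts. Some genes that this rule takes are not reported here. The members and lists were chosen with earlier results of these data known, and the pairs of a receptor with a listed gene, as well as Trpm8, Trpa1, Gfap, Myh6 and the other markers given singly, after their values were seen. ATAC-seq tables, transcript lengths, protein sequences and a ranking per length were not used here. Alternatives were other scalings, pooled counts, single libraries, pseudocounts and filters.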

Additional observations from a re-analysis of the deposited data

How the results depend on the processing

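No paired analysis was possible because the RNA libraries analysed belong to 1 group. Under TMM scaling, median-of-ratios scaling and a total without the 5 genes with the highest counts, the log2 differences of the 7 receptors kept their sign and their place relative to 0. A total without these 5 genes is smaller, so the mean CPM of all 7 receptors rose, that of Gpr158 from 146 to 153. The mean of Mrgpre rose to 11.9 CPM. Only for Mrgpre was the rise beyond 1 SD of its libraries, because its SD of 0.189 CPM was the smallest of the 7. The median of log2(CPM + 1) over the 7 receptors was 3.63, and it was 3.57 with a pseudocount of 0.5 and 3.52 with 0.1. With 1 library left out, the level is that of the other library, and the lowest and highest CPM were 6.65 and 7.32 for Chrm3, 13.5 and 18.5 for Htr2a, 0.798 and 1.33 for Htr2b, 5.80 and 7.35 for Ptger4, 17.0 and 18.4 for Mrgprx1, 11.2 and 11.5 for Mrgpre, and 139 and 154 for Gpr158. Over 2 libraries, a single library and the pooled counts always lie within 1 SD of the mean, so these values say nothing about stability. The percentile of each receptor among genes by CPM moved with the filter on low counts and is not used. No receptor's level was ranked per length, and the alternative lengths were not run. The planned comparison of accessible regions was not run. Depth limits Htr2b most, at 14 and 23 counts.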
